A study of Homo sapiens with 11 samples.

Results

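The miR-192, miR-194 and miR-215 clusters gave 5 of the 2588 mature miRNAs in the small RNA-seq tables, namely hsa-miR-192-5p, hsa-miR-192-3p, hsa-miR-194-5p, hsa-miR-194-3p and hsa-miR-215-5p, written without the species prefix from here on. They were selected by name, and the names had been proposed with the levels of these miRNAs across the cell lines already known. The levels below are therefore a description and carry no p-value. The members filled 6 of 2813 rows, because miR-194-5p is listed once for each of its 2 genomic copies, and these rows were summed unless stated otherwise.

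The libraries came from parental tumour cell lines that had received no knockdown or drug. A549 (lung adenocarcinoma), ES2 (ovary), MV3 (melanoma) and HepG2 (hepatoblastoma) were represented by 2 libraries each and harvested 48 h after seeding, PANC1 (pancreas) by 1 library at 48 h, and BE(2)C (neuroblastoma) by 2 libraries at 24 h according to the treatment protocol, although the sample characteristics of BE(2)C give 48 h. Libraries of A549, ES2, MV3 and PANC1 used a NEXTflex kit with 50 ng of total RNA as input, whereas those of BE(2)C and HepG2 were prepared by Novogene, with another sequencer and read length. Between these sets, line and preparation cannot be told apart, so the levels were contrasted within each set. The lines are established cell lines, each a single model of its tumour type, the libraries of a line were described as biological replicates, and PANC1 has no replicate error.

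MicroRNAs are cut from a hairpin precursor that yields a 5p and a 3p arm, and the seed near the 5' end of the mature strand pairs with target mRNAs. MIR192 and MIR194-2 form one cluster, MIR215 and MIR194-1 another, and miR-192-5p and miR-215-5p share a seed. In normal tissue these miRNAs are known from liver, gut and kidney, where the HNF1 transcription factors drive their genes, and p53 is also known to raise them.

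The mature sequences show how closely the 5p members of both clusters resemble each other. RefSeq (GRCh38.p14) held 5 of 5 members, printed 5' to 3' with the seed, bases 2 to 8, in capitals.
hsa-miR-192-5p: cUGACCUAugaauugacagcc
hsa-miR-215-5p: aUGACCUAugaauugacagac
hsa-miR-194-5p: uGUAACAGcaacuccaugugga
hsa-miR-192-3p: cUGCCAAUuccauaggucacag
hsa-miR-194-3p: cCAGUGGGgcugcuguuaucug
Counted from the 5' end, miR-215-5p differed from miR-192-5p by the substitutions C1A and C20A, which makes 2 differences in 21 bases, neither of them in the seed. Among 2370 mature names in the RefSeq table, no other miRNA had any of the 4 seeds. The handling of reads that match miR-192-5p as well as miR-215-5p, when a mismatch is allowed, was not given in the sources used here, and low values of either beside high values of the other are uncertain for that reason.

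The clusters lie on different chromosomes (GRCh38). MIR215 at chr1:220117853-220117962 and MIR194-1 at chr1:220118157-220118241 are on the minus strand, 194 bases apart, in an intron of IARS2, which is transcribed from the opposite strand. MIR192 at chr11:64891137-64891246 and MIR194-2 at chr11:64891355-64891439 are also on the minus strand, 108 bases apart, and lie within an exon of the long non-coding RNA MIR194-2HG. The mature miR-194-5p sequence is identical at both copies, whereas the bases next to it differ, shown here with 4 flanking bases on each side in capitals.
MIR194-1 (chr1): CAAGuguaacagcaacuccauguggaCUGU
MIR194-2 (chr11): CCCCuguaacagcaacuccauguggaAGUG
The first base after the mature sequence is C at MIR194-1 and A at MIR194-2.

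The RefSeq promoter of MIR194-2HG, from 250 bases before to 50 after its start, was searched on both strands for GTTAAT, the core of the HNF1 motif. It held the reverse complement, in capitals, 60 bases before the start, in chr11:64893492-64893521 (GRCh38.p14, minus strand).
MIR194-2HG promoter: ggtgggataatcATTAACcaccaccagggg
The motif was present on either strand in 2417 of 35116 promoters of this length (6.88%). The full palindrome, GTTAAT and ATTAAC with 1 base between them, was found in 2 promoters and not in this one. A match is a description of the letters only, and HNF1 itself was not measured in these files.

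Per library, 1173902 to 12137452 reads were assigned to miRNAs, and a count of 0 allowed up to 3 reads, which corresponds to 0.247 CPM (counts per 1000000 miRNA reads) at the greatest depth and 2.56 CPM at the lowest. Reads were PCR products, so this floor and all intervals below cover counting error only. BE(2)C replicates agreed least, with a chi-square per degree of freedom of 849 against 8.53 to 59.2 in the other lines with 2 libraries. In BE(2)C replicate 1, the liver miRNA miR-122-5p stood at 823 CPM against 5.96 CPM in replicate 2, and the erythroid miR-451a at 299 CPM against 46.0 CPM.

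The 5 members together made up 15845 and 16500 CPM in the HepG2 libraries, 4877 and 4614 CPM in A549 and 3794 and 3352 CPM in BE(2)C. Sums in ES2, MV3 and PANC1 lay between 130 and 181 CPM. HepG2, A549 and BE(2)C thus formed an upper group in the summed level, yet the mixture of members differed among them. The levels went against the name endodermal in some lines, because PANC1, from the pancreas, was in the lower group and BE(2)C, from a neuroblastoma, in the upper.

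**Figure D1:**
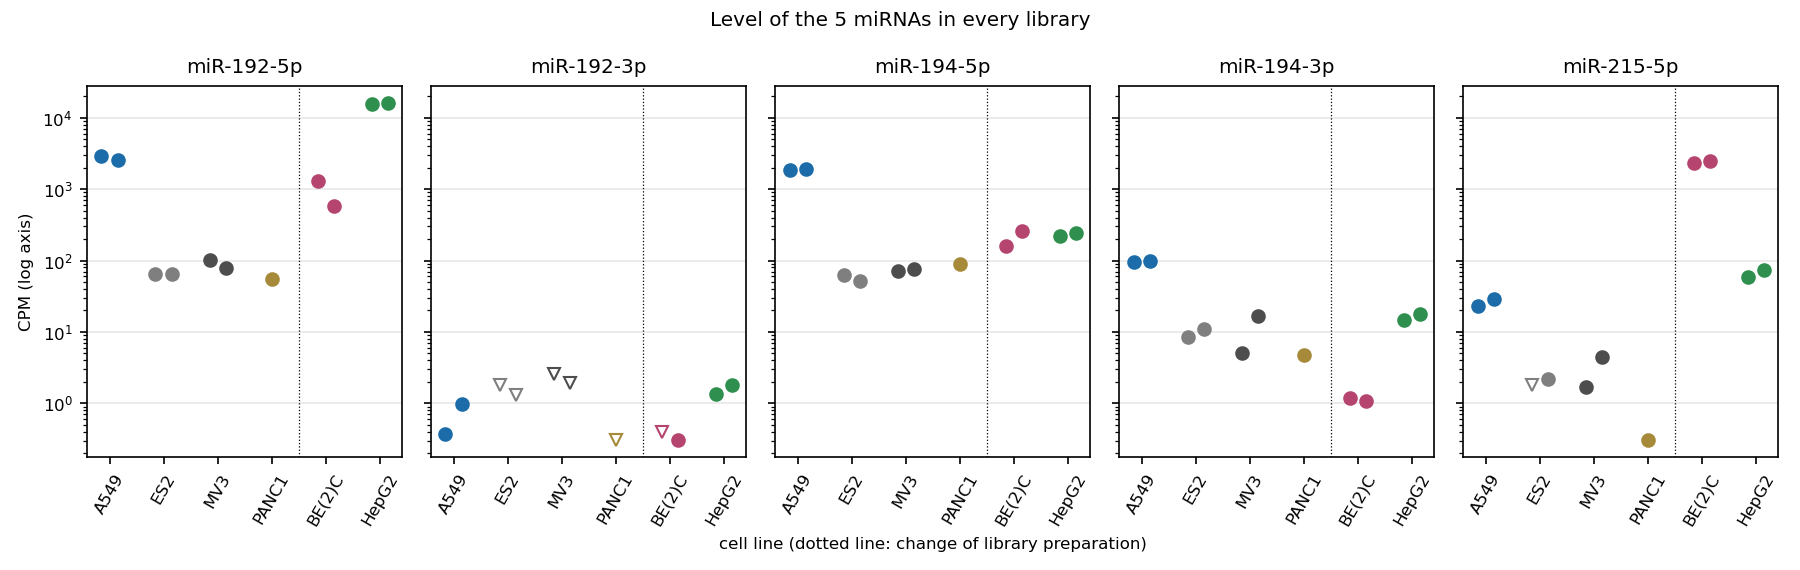
Level of each of the 5 miRNAs in every library, in CPM on a log axis, with 1 point per library, lines on the x axis and a dotted line where the library preparation changes. Open triangles mark libraries with 0 reads, drawn at the level of 3 reads. HepG2 is highest for miR-192-5p, A549 for both arms of miR-194 and BE(2)C for miR-215-5p.

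Within the cluster on chromosome 11, miR-192-5p, the guide strand of MIR192, was the most abundant member in HepG2 and A549, and at a lower level also in ES2 and MV3. It stood at 15552 and 16165 CPM in the HepG2 libraries, where it ranked 3 among all miRNAs in both. A549 libraries held 2874 and 2585 CPM and BE(2)C libraries 1288 and 578 CPM. ES2 had 65.5 and 64.9 CPM, MV3 101 and 79.4 CPM, and PANC1 54.5 CPM. On CPM the order HepG2, A549, BE(2)C, MV3, ES2, PANC1 had no overlap between neighbours. The steps between MV3, ES2 and PANC1 were, however, similar in size to the distance between the MV3 libraries. Line means were 15859 ± 434 CPM in HepG2, 2730 ± 205 CPM in A549 and 933 ± 502 CPM (SD, n = 2 each) in BE(2)C. The wide SD in BE(2)C is the distance between its 2 libraries and cannot be assigned to either of them. Replicate 1, the higher for miR-192-5p, also had the high miR-122-5p, and the cause of the difference was not tested.

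Compared with lines of the same preparation, A549 had 41.8 times the miR-192-5p level of ES2, 30.2 times that of MV3 and 50.1 times that of PANC1. HepG2 had 17.0 times the mean level of BE(2)C. On the log2(CPM + 1) scale, the limma difference was 5.30 ± 0.29 (SE) for A549 against the mean of ES2, MV3 and PANC1, and 4.20 ± 0.34 for HepG2 against BE(2)C. MiR-192-5p was the sole tested member whose 4 libraries of A549 and HepG2 were all above the other 7, a pattern found in 8 of 546 tested miRNAs (1.47%). With the members chosen on known levels, nothing is read from this share.

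The opposite arm, miR-192-3p, was rare in every line and exceeded the limit of 3 reads in HepG2. The HepG2 libraries had 16 and 22 reads, A549 libraries 1 and 2 reads, and BE(2)C libraries 0 and 2 reads. No read was assigned in ES2, MV3 or PANC1. In the HepG2 libraries these reads made 1.35 and 1.81 CPM, which is not above the level of 3 reads in every library of ES2 and MV3, so a difference from those lines was not detectable at this depth. PANC1 was sequenced more deeply, and its 0 reads allowed at most 0.308 CPM, less than in HepG2, which was prepared differently.

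MiR-194-5p is cut from both clusters and was highest in A549. A549 libraries stood at 1883 and 1899 CPM. The HepG2 libraries had 219 and 240 CPM and those of BE(2)C 160 and 258 CPM, so these lines overlapped. PANC1 reached 89.0 CPM, MV3 72.4 and 76.8 CPM and ES2 63.1 and 51.9 CPM. A549 thus exceeded PANC1 21.3 times, MV3 25.3 times and ES2 32.9 times, whereas HepG2 and BE(2)C were not separated on CPM, with a log2 difference of 0.18 ± 0.24 (SE).

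MiR-194-3p, listed at MIR194-2 alone, was also highest in A549, with 96.6 and 99.0 CPM. HepG2 libraries had 14.6 and 17.8 CPM, MV3 libraries 5.11 and 16.8 CPM and ES2 libraries 8.42 and 10.9 CPM. The single PANC1 library had 4.82 CPM and the BE(2)C libraries had 1.20 and 1.07 CPM. HepG2, MV3 and ES2 overlapped in their libraries, and BE(2)C was the lowest line for miR-194-3p although its miR-194-5p level was in the range of HepG2.

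Within the cluster on chromosome 1, miR-215-5p showed another order. BE(2)C libraries had 2346 and 2515 CPM, a mean of 2430 ± 119 CPM (SD, n = 2). The HepG2 libraries followed with 57.9 and 74.3 CPM and those of A549 with 23.2 and 29.1 CPM. ES2 had 0 and 2.18 CPM, MV3 1.70 and 4.52 CPM and PANC1 0.308 CPM, that is 3 reads. BE(2)C exceeded HepG2, prepared in the same way, 36.8 times, and on the log2(CPM + 1) scale HepG2 minus BE(2)C was -5.19 ± 0.57 (SE). Both BE(2)C replicates showed this level. If BE(2)C was harvested at 24 h, as the treatment protocol states, harvest time cannot be told apart from the line. Having both BE(2)C libraries above the other 9 was no rare pattern, with 204 of 546 tested miRNAs (37.4%).

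For the contrast of A549 with ES2, MV3 and PANC1, both A549 libraries exceeded every library of the other lines for 4 of 4 tested members, against 48 of 546 tested miRNAs (8.79%). Since the members were chosen on these levels, nothing is read from that count. MiR-192-3p stayed under the filter of 10 CPM in at least 1 line mean and was not tested. Between HepG2 and BE(2)C the members split, as miR-192-5p and miR-194-3p were above BE(2)C in both HepG2 libraries, against 56 of 546 miRNAs (10.3%), miR-194-5p overlapped, and miR-215-5p was below.

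**Figure D2:**
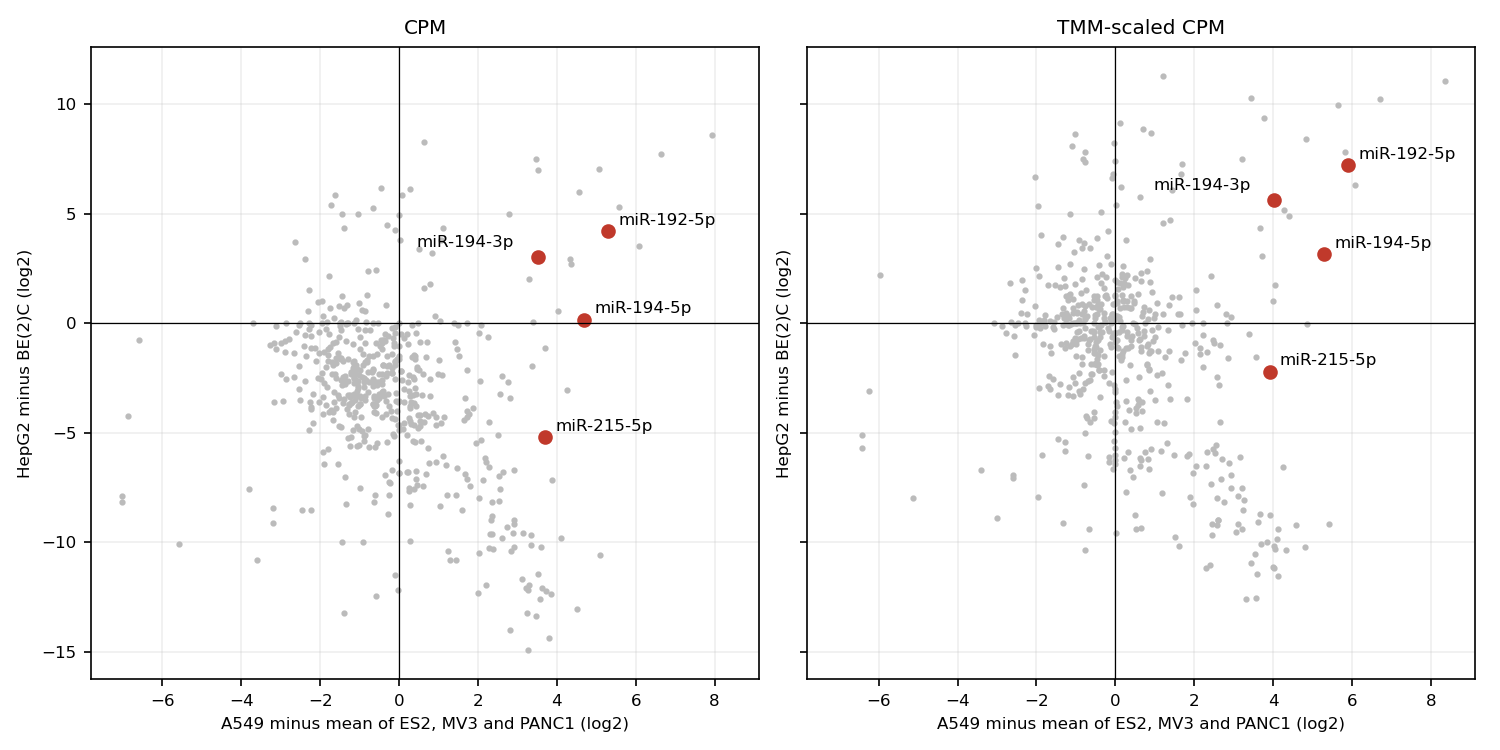
Log2 difference of A549 from the mean of ES2, MV3 and PANC1 (x axis) against that of HepG2 from BE(2)C (y axis) for the tested miRNAs, on CPM (left) and TMM-scaled CPM (right), with members in red and other miRNAs in grey. All 4 tested members lie right of 0, and miR-215-5p lies below 0 on the y axis on both scales.

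The scaling between libraries mattered for HepG2. Its libraries were dominated by miR-148a-3p, a liver miRNA at 752841 and 725599 CPM, and received TMM (trimmed mean of M-values) factors of 0.166 and 0.217, compared with 1.02 to 1.87 in the other libraries. The median log2 difference of all tested miRNAs between HepG2 and BE(2)C was -2.79 on CPM and -0.49 after TMM scaling, and that of the A549 contrast was -0.44 on CPM and 0 after scaling. Relative to other miRNAs, the members were therefore higher in HepG2 than CPM shows.

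After TMM scaling, HepG2 stood at 84025 ± 13510 scaled CPM for miR-192-5p, against 2580 ± 336 in A549 (SD, n = 2 each). ES2 and MV3 overlapped for miR-192-5p after scaling, at means of 49.4 and 49.0 scaled CPM. For miR-194-5p, HepG2 reached 1213 ± 149 scaled CPM and was separated from BE(2)C at 135 ± 35, whereas A549 remained first with 1783 ± 88. MiR-194-3p was close in A549 and HepG2 on this scale, at 92.2 ± 3.5 and 85.1 ± 4.3 scaled CPM. BE(2)C stayed first for miR-215-5p with 1588 ± 43 scaled CPM against 345 ± 4.3 in HepG2. BE(2)C exceeded HepG2 4.60 times for miR-215-5p after scaling.

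The log2 difference of HepG2 from BE(2)C for miR-194-5p changed from 0.18 on CPM to 3.18 after TMM scaling. That for miR-192-5p changed from 4.20 to 7.21, for miR-194-3p from 3.01 to 5.63, and for miR-215-5p from -5.19 to -2.20. In the A549 contrast the shifts were smaller, with 5.90 for miR-192-5p, 5.29 for miR-194-5p, 4.02 for miR-194-3p and 3.91 for miR-215-5p after scaling. After scaling, 3 of 4 tested members had all A549 and HepG2 libraries above the other 7, compared with 20 of 546 miRNAs (3.66%). As the members were chosen with these levels known, nothing is read from this count.

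**Figure D3:**
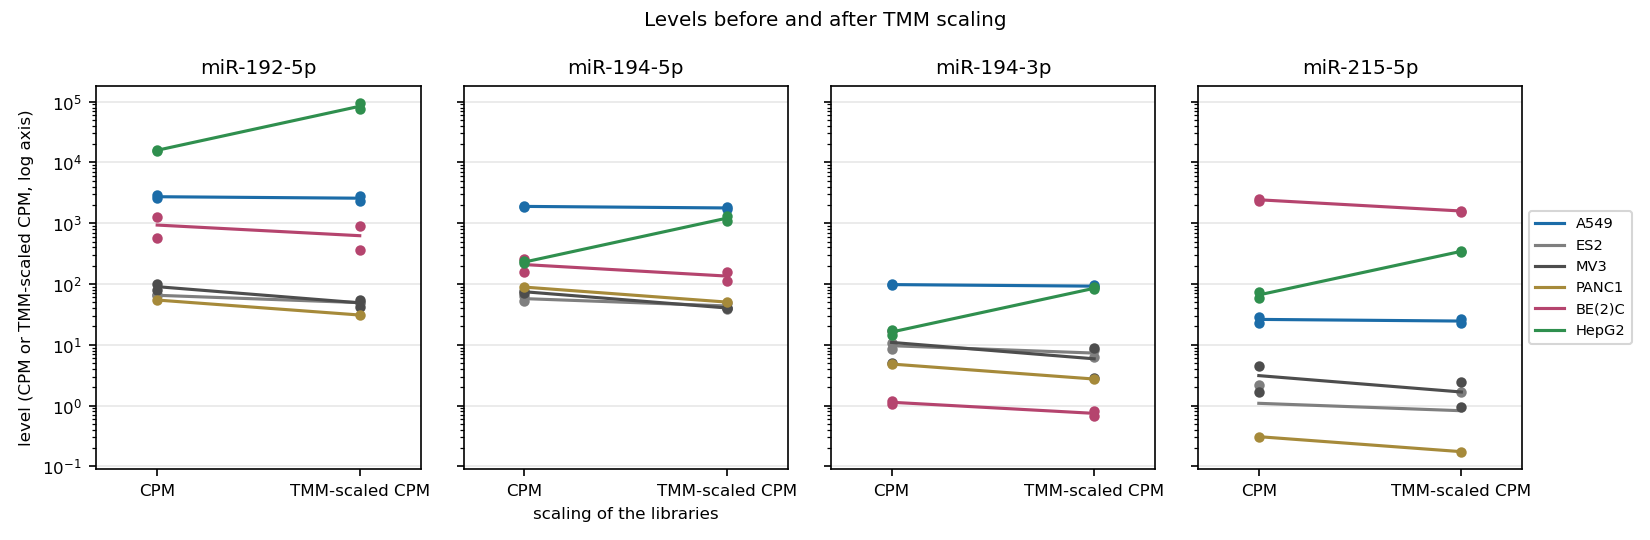
Levels of 4 members per line before (CPM) and after TMM scaling, on a log axis, where points are libraries, lines connect the means of a cell line and libraries at 0 have no point. HepG2 is higher on TMM-scaled CPM than on CPM, separating from BE(2)C for miR-194-5p and nearing A549 for miR-194-3p, while BE(2)C stays first for miR-215-5p.

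Ratios within a library do not depend on that scaling, although they still carry the capture bias of each preparation. Of the reads with the shared seed of miR-192-5p and miR-215-5p, miR-215-5p held 64.6% (95% Wilson interval 64.0% to 65.1%) and 81.3% (80.8% to 81.8%) in the BE(2)C libraries. In the HepG2 libraries it held 0.371% and 0.458%, in A549 0.801% and 1.11%, and in PANC1 0.562%. In ES2 and MV3 the share was between 0% and 5.38%, from 0 to 7 reads of miR-215-5p. BE(2)C was the sole line in which miR-215-5p outnumbered miR-192-5p, in both of its libraries. Where miR-192-5p was abundant, a share near or below 1% is uncertain, since how many of these reads came from miR-192-5p was not tested.

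The shared seed brought BE(2)C and A549 to similar levels. MiR-192-5p and miR-215-5p together gave 3633 and 3093 CPM in BE(2)C and 2898 and 2614 CPM in A549, compared with 15610 and 16239 CPM in HepG2. ES2, MV3 and PANC1 held 54.8 to 103 CPM of this seed. BE(2)C was built mainly from MIR215, whereas A549 and HepG2, like ES2, MV3 and PANC1 with their low levels, were built mainly from MIR192.

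Within the chromosome 11 cluster, miR-194-5p did not keep a fixed proportion to miR-192-5p. Per read of miR-192-5p there were 0.655 and 0.735 reads of miR-194-5p in A549, 0.963 and 0.799 in ES2, 0.714 and 0.967 in MV3 and 1.63 in PANC1. HepG2 had 0.0141 and 0.0149, and BE(2)C 0.124 and 0.446. With the chromosome 11 row of miR-194-5p alone, the means were 0.575 ± 0.053 in A549 and 0.00863 ± 0.00006 in HepG2 (SD, n = 2 each). All 7 NEXTflex libraries were thus above all 4 Novogene libraries, and line and preparation cannot be told apart in this ratio. Within the NEXTflex set, A549 had a ratio within the range of MV3 to ES2 or just under it, although its levels of both miRNAs were over 20 times higher.

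The deposited tables divided miR-194-5p reads between MIR194-1 and MIR194-2 in unequal and line-dependent proportions. The MIR194-1 row held 66.2% (95% Wilson interval 63.5% to 68.8%) and 74.2% (72.1% to 76.3%) of them in BE(2)C. HepG2 libraries had 39.1% (37.2% to 41.0%) and 41.7% (39.9% to 43.5%), and A549 libraries 17.9% (16.9% to 19.0%) and 16.7% (15.6% to 17.9%). PANC1 had 16.1%, MV3 18.8% and 20.2%, and ES2 6.67% and 21.8%, from 7 to 140 reads at MIR194-1. BE(2)C, with the most miR-215-5p, also had the largest share at the copy next to MIR215. Its share was above that of HepG2, the other line of its preparation, by more than the intervals. On CPM the level of the MIR194-1 row was nevertheless highest in A549, at 338 and 317 CPM. BE(2)C had 106 and 192 CPM and HepG2 85.6 and 100 CPM in this row. That order depends on scaling, because the TMM factors of 0.166 and 0.217 place HepG2 above A549, whose factors were 1.02 and 1.10. Per read of miR-215-5p, this row had 0.0451 and 0.0762 reads in BE(2)C, 1.48 and 1.35 in HepG2 and 14.5 and 10.9 in A549.

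This division was unusual among miRNAs with 2 rows. Of 133 such miRNAs, 37 had at least 100 reads in at least 2 libraries, and for 32 of these the more abundant row held a median of no more than 55%. MiR-194-5p had the widest range of these 37 across libraries, 67.6 percentage points against a median of 4.15 points, and 3 exceeded 20 points. The mature sequences printed above are identical, so reads that end within them cannot be placed at either copy, and what the authors' counting did with them was not given in the sources used here. All NEXTflex libraries were below all Novogene libraries, and the effect of preparation on the division was not tested.

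**Figure D4:**
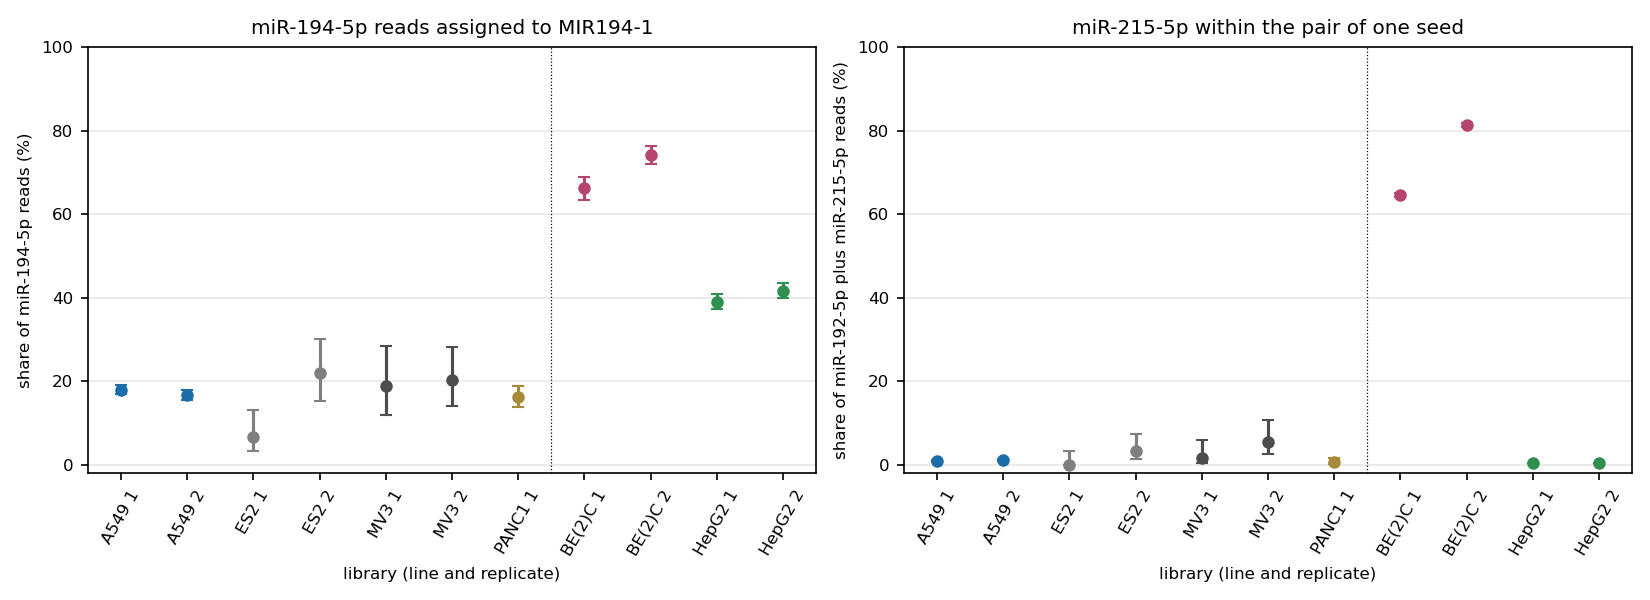
Left, percent of miR-194-5p reads listed at MIR194-1, and right, percent of miR-215-5p among reads of miR-192-5p plus miR-215-5p, per library with 95% Wilson intervals. A dotted line separates NEXTflex from Novogene libraries. BE(2)C is highest in both plots, at 66.2% and 74.2% on the left and 64.6% and 81.3% on the right.

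Arm usage, the number of 5p reads per 3p read, is a ratio within a library that the choice of members did not use, although it comes from the same reads, and it was tested with limma over all hairpins with both arms. For miR-194, A549 libraries had 5027 and 3914 reads of the 5p arm with 258 and 204 reads of the 3p arm, that is 19.5 and 19.2 reads of 5p per 3p read. HepG2 libraries gave 15.0 and 13.5, and PANC1 gave 18.4. Ratios in ES2 were 7.50 and 4.76, and in MV3 14.2 and 4.58, from at most 26 reads of the 3p arm. BE(2)C stood apart with 133 and 241, from 9 and 7 reads of miR-194-3p.

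**Figure D5:**
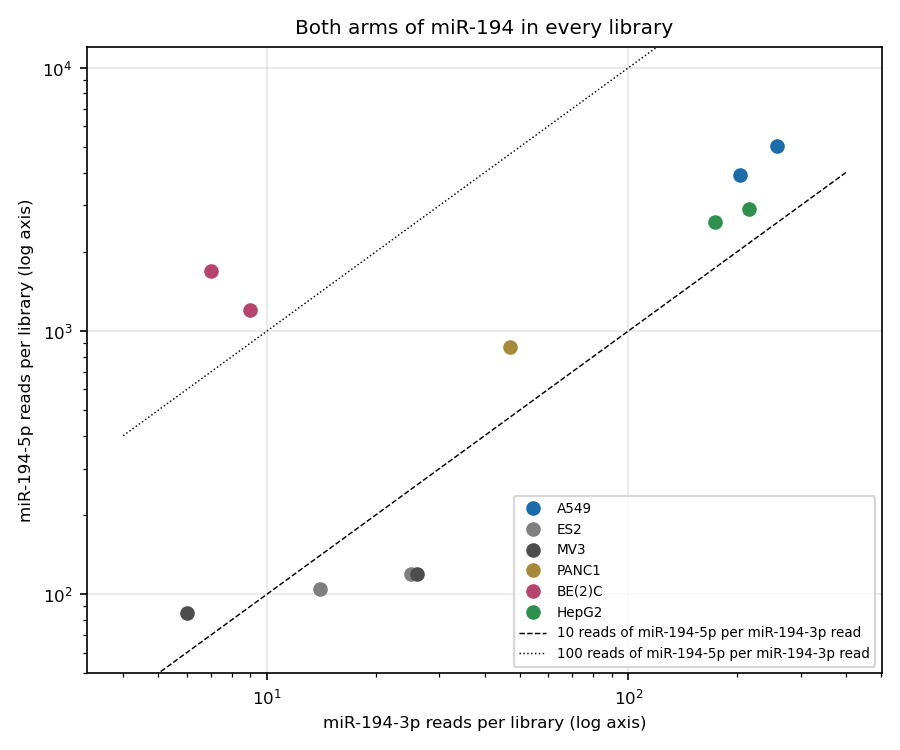
Reads of miR-194-5p against reads of miR-194-3p in every library, on log axes, with lines at 10 and 100 reads of 5p per 3p read. The BE(2)C libraries are the ones above the line of 100, and A549 and HepG2 lie together near the line of 10.

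On the log2 scale the arm ratio of miR-194 was 4.27 ± 0.02 in A549 and 3.83 ± 0.10 in HepG2 (SD, n = 2 each). The difference of 0.44 ± 0.57 (SE) did not pass the test (limma with Benjamini-Hochberg adjustment, adjusted p = 0.508), whereas 71 of 137 hairpins did (51.8%). Line and preparation cannot be told apart in this contrast. Against ES2, MV3 and PANC1 the difference was 1.04 ± 0.51 (limma, adjusted p = 0.245), and 28 of 196 hairpins passed (14.3%). The tested ratio sums the 5p reads of both copies, whereas miR-194-3p is listed at MIR194-2 alone. With the MIR194-2 row of the 5p arm alone, BE(2)C still had the highest mean ratio, 5.64 ± 0.31 on the log2 scale compared with 3.08 ± 0.15 in HepG2. On this row the A549 libraries had 15.99 and 15.98 reads of 5p per 3p read, above the HepG2 libraries with 9.11 and 7.88. That separation of A549 from HepG2 was not tested.

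For miR-192, the 3p arm was too rare for a precise ratio, since 6 of 11 libraries had 0 reads of it. HepG2 libraries had 11548 and 8918 reads of the 5p arm per 3p read. The test of A549 against HepG2, which also differ in preparation, gave -1.58 ± 1.06 (SE, log2; limma, adjusted p = 0.238). In ES2, MV3 and PANC1 the 3p arm was at 0, so the ratio there was set by the number of 5p reads, and no arm usage of miR-192 is given against these lines.

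Other miRNAs of defined tissue or pathway association were compared in the same fits. These lists, like the members, were set up with earlier results known. Of all 546 tested miRNAs, 21.6% were called higher and 37.5% lower in A549 than in ES2, MV3 and PANC1 on CPM (limma, adjusted p under 0.05), and 26.4% and 23.4% after TMM scaling. For HepG2 against BE(2)C, 8.24% were called higher and 74.7% lower on CPM, and 22.9% and 41.4% after TMM scaling. The counts of each list are to be read against these shares. In the epithelial list, the miR-200 family is known to maintain the epithelial state. Of 5 tested miRNAs, 3 were higher in A549 than in ES2, MV3 and PANC1, with 4 higher after TMM scaling and in edgeR and DESeq2. HepG2 was higher than BE(2)C for 4 of them and lower for miR-203a-3p on both scales by limma, a call that edgeR and DESeq2 did not make. The median log2 difference of the list was 4.55 for A549, against -0.44 over all miRNAs, and 3.51 for HepG2, against -2.79.

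The p53-linked list holds the miR-34 family, direct p53 targets that restrain the cell cycle, and miR-143 and miR-145. Of 7 tested miRNAs, 6 were higher in A549 on both scales and in edgeR and DESeq2, with a median log2 difference of 2.02. The reference in this contrast is the mean of ES2, MV3 and PANC1, and MV3 was above A549 for 3 of these 6, with means of 124 against 50.7 CPM for miR-34b-3p, 209 against 119 CPM for miR-34c-5p and 13.9 against 6.18 CPM for miR-34c-3p. MiR-34a-5p was at 265 and 268 CPM in A549, 54.6 and 65.4 CPM in HepG2 and 67.6 CPM in PANC1, and at no more than 3.61 CPM in the other lines. Between HepG2 and BE(2)C, 1 of the 7 was higher on both scales, miR-34a-5p, while 2 were lower on CPM and 0 after TMM scaling in limma (0 at an unadjusted p under 0.05), edgeR and DESeq2. MiR-34a-5p, like miR-192-5p and unlike miR-215-5p, was low in BE(2)C compared with HepG2.

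The liver and endoderm list gave different counts in the contrasts. Of its 6 tested miRNAs, 0 were higher in A549 (limma, on both scales, and 0 at an unadjusted p under 0.05). In edgeR 0 were higher, with 2 at an unadjusted p under 0.05, and in DESeq2 1 was higher. MiR-148a-5p was called lower in A549 by limma on both scales, whereas edgeR and DESeq2 called 0 of the list lower. It had 0 reads in A549 and ES2, at most 1 read in MV3 and 57 reads (5.85 CPM) in PANC1. The limma call therefore came from the single PANC1 library. The median log2 difference of the list was -0.25. In HepG2, miR-148a-3p and miR-148a-5p were higher than in BE(2)C and 3 miRNAs were lower, of which 1 remained lower after TMM scaling. MiR-122-5p, which makes up much of the miRNA in normal liver, was at 64.0 and 50.0 CPM in HepG2 and did not pass the test against BE(2)C (limma, adjusted p = 0.88), whose replicates were far apart for it. The pancreatic islet miRNA miR-375 was higher in BE(2)C, at a mean of 5619 CPM against 2.12 CPM in HepG2, as was miR-215-5p.

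Lists of other cell types were compared in the same way. Of 5 tested neuronal miRNAs, 4 were lower in HepG2 than in BE(2)C on both scales, among them miR-9-5p and miR-218-5p. The other one, miR-128-3p, was higher in HepG2 after TMM scaling. In A549, 2 of the 5 were lower. The melanocyte miRNA miR-211-5p had 0 reads in every library, MV3 included. The other of this list, miR-204-5p, was lower in HepG2 than in BE(2)C on both scales. It did not pass in A549 by limma (adjusted p = 0.13), while edgeR and DESeq2 called it higher there (adjusted p = 0.024 and 0.0065). It had 4 and 6 reads in A549, 0 and 5 in ES2, 2 and 2 in MV3 and 0 in PANC1. The A549 libraries overlapped those of ES2 and MV3 in CPM. The edgeR and DESeq2 calls therefore rest on counts near the limit of 3 reads. Of 3 tested blood miRNAs, 2 were called lower in A549 by limma on both scales and 0 by edgeR and DESeq2. These 2 were miR-142-3p, at 326 and 286 CPM in ES2, and miR-142-5p, at 153 and 140 CPM in ES2, whereas both had 0 reads in A549 and MV3 and at most 1 read in PANC1, so the call came from ES2. In HepG2, 3 were lower on CPM and 0 after TMM scaling by limma (1 at an unadjusted p under 0.05), with 1 by edgeR and 0 by DESeq2. Both tested muscle miRNAs were lower in A549 by limma and 1 by edgeR and DESeq2. MiR-1-3p was at 6273 CPM in PANC1, 4.49 and 2.43 CPM in A549 and at most 10.2 CPM in ES2 and MV3. MiR-133a-3p was at 584 CPM in PANC1, 0.749 and 2.91 CPM in A549 and 0 CPM in ES2 and MV3. These calls therefore came from the single PANC1 library. Of the 2 muscle miRNAs, 1 was lower in HepG2 on CPM, and after TMM scaling 1 was higher and 1 lower.

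By Pearson's r across the 6 line means of log2 levels, the miRNA most like the summed members among 542 others was miR-200a-3p, with r = 0.94 on CPM and 0.96 on TMM-scaled CPM. It stood at 71.9 and 80.6 CPM in A549, 68.6 and 69.9 CPM in HepG2, 13.2 and 1.68 CPM in BE(2)C and at most 0.852 CPM elsewhere. On CPM it was followed by miR-200a-5p (r = 0.88), miR-582-3p (0.85), miR-148a-3p (0.79) and miR-143-3p (0.75). On TMM-scaled CPM the next were miR-1180-3p (r = 0.95), miR-200a-5p (0.92), miR-582-3p (0.92) and miR-132-5p (0.90). MiR-1180-3p and miR-132-5p were not among the leading 5 on CPM. On that scale HepG2 was the lowest line for both, with means of 92.8 and 6.21 CPM. MiR-200a-5p and miR-582-3p were among the leading 5 on both scales. These values rest on 6 points that share library preparation in sets of 4 and 2, and they are given as a description.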

How the data were processed

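Small RNA was sequenced from 6 cell lines (11 libraries), grouped by the cell line label. The authors deposited 1 table per line. PANC1 values were deposited as CPM, and the authors' values for the other 5 lines were a signal (CPM over a factor that was fixed table by table). Per the labels the processing used cutadapt 1.14, Bowtie2 2.3.2, SAMtools 1.5, featureCounts 1.5.3, edgeR 3.30.3 and genome build hg38, named in the submitters' processing notes without roles, and the treatment of reads with several matches was not given in the sources used here. Whole reads were recovered for 100% of the nonzero values (tolerance 0.02 reads), so the separately normalized tables were returned to reads, rows of one name were summed and each library was rescaled to CPM. No deposited column was left unused (0 columns).

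The 546 miRNAs that reached 10 CPM in the mean of any line were fitted on log2(CPM + 1), which understates changes of low miRNAs, with limma 3.58.1 in R 4.3.3 (all libraries, cell line as factor, trend, two-sided contrasts, Benjamini-Hochberg, threshold 0.05). The design had named CPM as the unit, and the recomputed CPM were used for it. PANC1 was assumed to vary like the other lines. Arm ratios were log2 of 5p over 3p reads with 0.5 added, for libraries with at least 20 reads of both arms together. Alternatives included TMM factors (edgeR 4.0.16), edgeR's quasi-likelihood test and DESeq2 1.42.0 on the recovered reads. The count test in edgeR called 226 miRNAs for A549 and 340 for HepG2. Wilson intervals (95%) came from scipy 1.17.1 in Python 3.11.15. The fits were tested on simulated data.

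Named were the 5 members, the listed miRNAs, and the 5 miRNAs with the highest Pearson correlation with the summed members on CPM and on TMM-scaled CPM. Members, lists and tests were chosen with earlier results of these data known.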

Additional observations from a re-analysis of the deposited data

Results flagged for a closer look

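The other arm of MIR215, miR-215-3p, is not among the 5 members and enters no comparison above. It was detected in BE(2)C, with 16 reads in replicate 1 and 75 reads in replicate 2, which is above the limit of 3 reads that a count of 0 allows. No read of miR-215-3p was assigned in the other 9 libraries. In CPM it stood at 2.13 and 11.5, while miR-215-5p was at 2346 and 2515 in the same libraries.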

How the results depend on the processing

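The count of miRNAs called between A549 and ES2, MV3 and PANC1 was 323 (118 higher, 205 lower) and ranged from 226 with edgeR to 358 with each genomic copy as its own row, and from 259 to 318 when a library was left out. After TMM scaling it was 272, with 144 higher and 128 lower, so the share called higher changed from 36.5% to 52.9%; edgeR gave 68.6% and DESeq2, with 237 calls, 70.9%. For HepG2 against BE(2)C, 453 were called (9.93% higher), 351 after TMM scaling (35.6%), 340 with edgeR (38.8%), 328 with DESeq2 (40.9%) and 691 without the filter, which tested 1608 miRNAs. Arm ratios between A549 and ES2, MV3 and PANC1 passed for 28 hairpins, for 15 to 25 without one library, lowest without PANC1 and 16 and 18 without A549 replicate 1 and replicate 2, and for 16 when the rarer arm had to average 10 reads, an alternative chosen after seeing the data because simulated hairpins with few reads of one arm gave false calls. Between A549 and HepG2 they passed for 71, and for 52 to 71 without one library. The number of tested members with all A549 and HepG2 libraries above the other 7 was 1 on CPM, 3 after TMM scaling and 1 to 2 without one library, with 2 without MV3 replicate 2, BE(2)C replicate 2 or HepG2 replicate 1. The share of miR-215-5p in BE(2)C was 72.9% on average and 64.6% to 81.3% from single libraries. The log2 difference of miR-194-5p between HepG2 and BE(2)C was 0.18, with 0.52 without BE(2)C replicate 2 and a reversed -0.17 without BE(2)C replicate 1. With the replicate number as a block (replicate block), 320 and 451 miRNAs and 67 and 19 hairpins were called. Replicates of equal number did not deviate together (r from -0.05 to 0.11 over 10 pairs of lines, 1 over 0.1), so the numbers do not pair the libraries. The cause of these shifts was not tested. The depth limits miR-192-3p, with at most 22 reads in a library, and miR-194-3p outside A549 and HepG2.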
